A study of Mus musculus with 12 samples.

Results

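The Klf4 locus is a stretch of mouse chromosome 4 that holds the gene for KLF4, a transcription factor of the naive pluripotency network. Its members were the 1 kb bins between positions 55277136 and 55782475 of the mm10 genome, a window that the study had displayed and that was taken up with earlier results of these data known. The window covered 506 of the 2725511 bins in each track. Okazaki fragment sequencing (OK-seq) was performed on mouse embryonic stem cells (mESCs) in 2 states and 3 genotypes, with 2 replicates of each, 12 samples in all. Each deposited track was the sum of its 2 replicates, so the analysis rests on 6 pooled tracks and there is no spread between replicates. All intervals below are therefore 95% intervals of counting error only, no difference was tested between cultures, and a difference is named as "called" only where its interval did not include 0.

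Naive cells were cultured with LIF and 2i, and epiblast-like cells (EpiLCs, labelled formative ESC) were grown without them. The control was a KMT2C KO line, labelled control KO. In the KMT2C/D dKO cells, labelled double KO, KMT2D was also removed, by CreER and 4-hydroxytamoxifen acting on a conditional KMT2D allele in a KMT2C KO line of mixed strain background. The KMT2C/D dCD cells, labelled double catalytic dead, carry both proteins without their methyltransferase activity. The catalytic dead KMT2D allele came from R1 cells, a line of a different strain background, so strain and genotype cannot be told apart in comparisons of dCD with control. The study's materials name a KMT2C KO line with the conditional KMT2D allele and a separate dCD line. No track came from wild-type cells.

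During replication the lagging strand is made as short Okazaki fragments, and the strand they come from gives the direction in which the fork was moving. A leftward fork leaves Okazaki fragments on the Watson strand and a rightward fork on the Crick strand, so the Crick share of the reads in a window rises with the share of rightward forks. A rise of the Crick share from left to right along the chromosome marks a zone where forks start, and a fall marks where they meet. KMT2C and KMT2D place the mark H3K4me1 at enhancers, and Klf4 is known for a cluster of distal enhancers downstream of the gene that is active in naive cells. Klf4 is itself turned down as cells leave the naive state.

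Klf4 lies on the minus strand at chr4:55527143-55532466, so its downstream enhancers lie to its left in the genome. Of the 13 annotated genes with a transcription start site (TSS) in the locus, the only other protein-coding gene was Rad23b, which encodes a nucleotide excision repair factor and runs on the plus strand at chr4:55350043-55392237. Its TSS is 182 kb to the left of that of Klf4. The remaining genes were 5 lincRNAs, 4 processed pseudogenes and 2 small nucleolar RNA genes. The lincRNA Gm12510 has its TSS at position 55465814, 66.7 kb to the left of the Klf4 TSS, on the minus strand.

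The promoters of the 2 protein-coding genes are shown because replication zones are often found at CpG-rich promoters and the strand bias was measured across both. The 250 bases before the RefSeq start of each gene follow, 5′ to 3′ on the strand of the gene, with each CpG in capitals. They are from the RefSeq table of build GRCm38.p6, at chr4:55532476-55532725 on the minus strand for Klf4 and chr4:55349792-55350041 on the plus strand for Rad23b.
Klf4: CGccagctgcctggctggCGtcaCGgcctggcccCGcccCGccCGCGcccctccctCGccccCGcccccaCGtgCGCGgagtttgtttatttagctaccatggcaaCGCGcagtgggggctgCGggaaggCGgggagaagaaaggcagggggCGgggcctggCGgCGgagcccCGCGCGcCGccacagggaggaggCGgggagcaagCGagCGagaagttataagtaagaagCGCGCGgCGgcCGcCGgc
Rad23b: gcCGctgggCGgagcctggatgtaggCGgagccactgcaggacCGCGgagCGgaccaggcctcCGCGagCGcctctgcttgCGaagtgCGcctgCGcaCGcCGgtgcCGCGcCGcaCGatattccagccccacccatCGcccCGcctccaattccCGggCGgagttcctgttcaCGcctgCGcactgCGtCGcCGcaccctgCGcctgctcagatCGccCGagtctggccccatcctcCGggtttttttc
The Klf4 promoter held 32 CpG and the Rad23b promoter held 31. The median of 32851 promoters of the same length was 6, and 4.58% had at least as many as Klf4 and 5.19% at least as many as Rad23b.

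The locus drew 1102 reads in naive control, 1090 in naive dKO and 746 in naive dCD, from libraries of 4409068, 3937871 and 3655095 reads. In EpiLCs it drew 2717 reads in control, 3248 in dKO and 2584 in dCD, from 11407678, 12962445 and 13601460 reads. A 50 kb window therefore held about 109, 108 and 73.7 reads in the naive tracks against 268, 321 and 255 in the EpiLC tracks, and the naive dCD track was the least precise of the 6. With reads scaled to 1000000 on the autosomes and X (RPM), Kmt2c gave 111 to 117 and Kmt2d 22.5 to 33.7 RPM over the 6 tracks. The 1 kb bins do not resolve the exons or bases that were altered, so these reads give no check of the genotypes.

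The share of reads from the Klf4 locus was lower in dCD than in control in both states. Naive control gave 251 RPM (95% interval 237 to 266), naive dKO 278 (262 to 295) and naive dCD 205 (191 to 220). EpiLC control gave 239 (230 to 248), EpiLC dKO 251 (243 to 260) and EpiLC dCD 190.4 (183 to 198). The dCD intervals lay below those of control and dKO in each state. The ratio of dCD to control was 0.817 (0.744 to 0.896) in naive cells and 0.797 (0.755 to 0.841) in EpiLCs. Among windows of the same length across the genome, 3.22% had a lower dCD to control ratio in naive cells and 1.97% in EpiLCs. The ratio of dKO to control was 1.11 (1.02 to 1.20) in naive cells and 1.05 (0.9997 to 1.11) in EpiLCs.

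**Figure D1:**
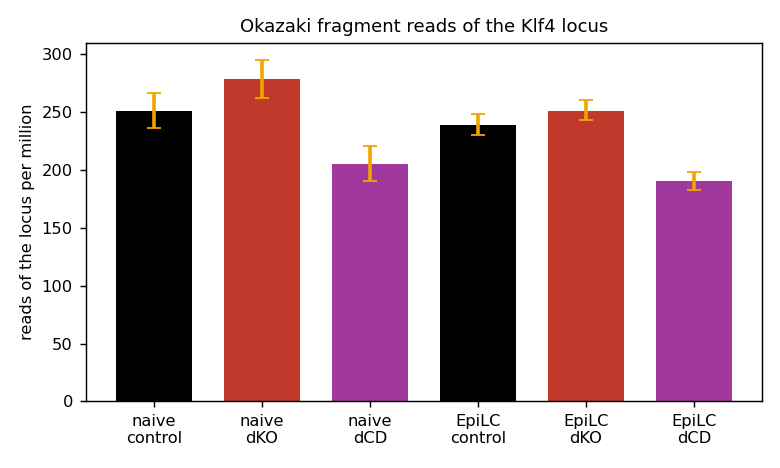
Reads from the Klf4 locus in RPM (reads scaled to 1000000 reads on the autosomes and X, y axis, from 0) in each of the 6 pooled tracks (x axis), with exact Poisson 95% intervals as bars. Both dCD tracks, at 205 and 190.4, lie below the control and dKO tracks of their state.

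The locus-wide share was also compared between the states. The EpiLC to naive ratio was 0.952 (0.887 to 1.02) in control, 0.904 (0.844 to 0.968) in dKO and 0.928 (0.856 to 1.01) in dCD. Chromosome 4 as a whole made up 6.25% of reads in naive control, 6.08% in naive dCD, 6.17% in EpiLC control and 5.99% in EpiLC dCD. The dCD to control difference at the locus was larger than that of its chromosome. Copy number of the locus in these lines was not measured, and its part in the dCD values was not tested.

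In naive control cells the locus was split between mostly leftward or balanced forks on its left and rightward forks on its right. For the description along the locus, 10 windows of 50 kb were laid so that the boundary between the fifth and sixth fell at the Klf4 TSS. From left to right the Crick share in naive control was 47.9%, 47.2%, 36.1%, 51.3% and 64.5% up to the TSS, and 68.7%, 73.4%, 72.0%, 67.4% and 57.1% beyond it. The lowest window, centred 125 kb to the left of the TSS between Rad23b and Gm12510, had an interval of 27.7 to 45.5%. The highest, centred 75 kb to the right, had one of 65.0 to 80.4%.

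The naive dKO track also went from below 50% on the left to above it on the right, with its lowest share in the first window. Its shares were 34.9%, 44.1%, 40.2%, 52.5% and 69.9% up to the TSS and 70.2%, 68.8%, 76.0%, 72.7% and 68.9% beyond it. None of the 10 windows was called between dKO and control in naive cells, where 8.37% of all 50 kb windows of the autosomes and X were. The smallest and largest of these differences in signed value were −13.03 (−26.6 to 1.29) and 11.7 (−2.29 to 25.1) percentage points, wide intervals that do not show that the tracks were alike.

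The naive dCD track had a different course. Its shares were 47.5%, 67.1%, 58.1%, 50% and 68.3% up to the TSS and 85.9%, 86.3%, 75.8%, 78.7% and 69.6% beyond it. In 4 of 10 windows dCD was called against control, each time higher, against 13.7% of all windows called in either direction and 6.85% called higher. These were the window that starts 200 kb to the left of the TSS, at 19.9 (5.75 to 32.6) percentage points, and its neighbour on the right, at 22.0 (7.25 to 35.5). The other two were the first window to the right of the Klf4 TSS, at 17.3 (4.48 to 27.8), and the next, at 12.9 (0.947 to 23.3). The last of these calls was lost with the part of the Crick share that followed base content (the excess of T over A on the Watson strand) removed, at 9.59 (−3.78 to 21.6), and with libraries thinned to the smallest, at 11.5 (−0.539 to 22.2). Both calls on the right were lost with each deviation from 50% divided by the spread of Crick shares in its library, at 8.88 (−1.97 to 18.5) and 4.43 (−5.78 to 14.0), which left 2 of 10 windows, against 10.2% of all windows scaled in that way. With windows shifted by 25 kb, 2 of 9 were called. The same 4 windows were called between dCD and dKO, against 10.8% of all windows.

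**Figure D2:**
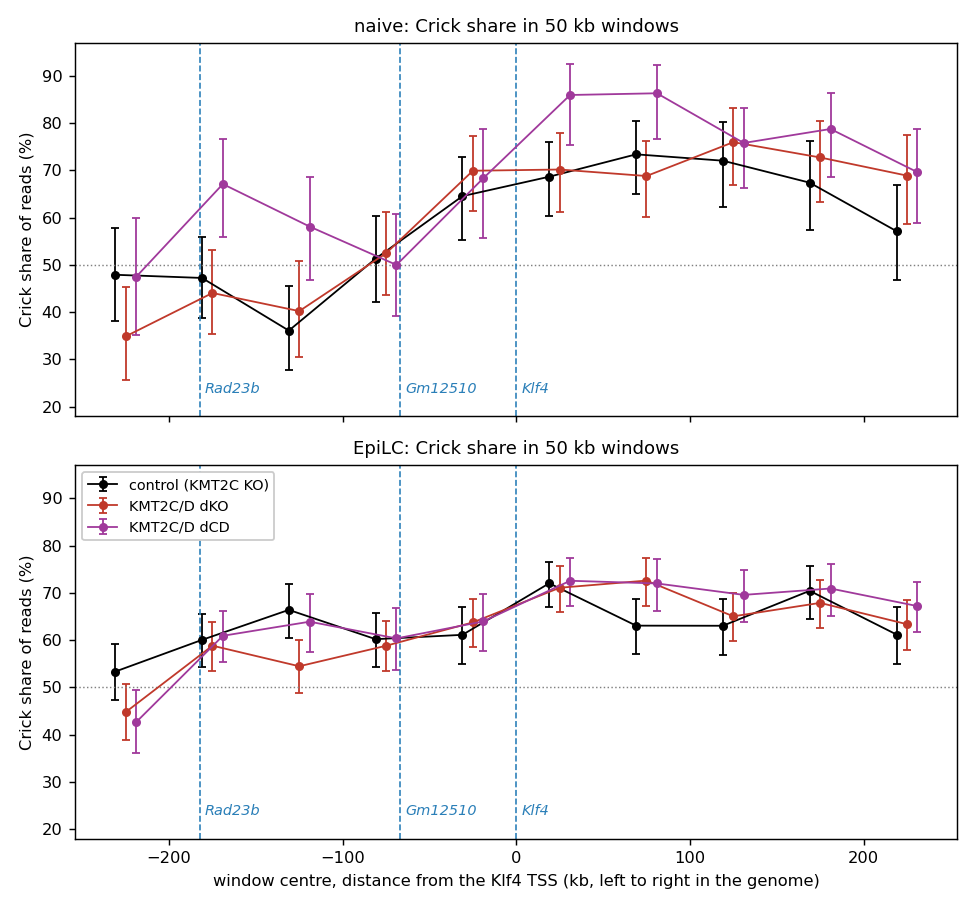
Crick share of the reads (y axis, percent) in 50 kb windows against the distance of the window centre from the Klf4 TSS (x axis, kb), with Wilson 95% intervals, for the 3 genotypes in naive cells (top) and EpiLCs (bottom). Points are shifted sideways for legibility, and dashed lines mark the TSSs of Rad23b, Gm12510 and Klf4. In naive cells control and dKO climb from 36.1% and 40.2% at 125 kb to the left to over 64% just left of the TSS. The dCD share falls from 67.1% at 175 kb to the left to 58.1% and then 50% in the next windows.

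In EpiLC control the dip to the left of the Gm12510 TSS was not seen. Its shares were 53.4%, 60.1%, 66.4%, 60.2% and 61.1% up to the TSS and 72.0%, 63.1%, 63.1%, 70.4% and 61.2% beyond it. EpiLC dKO gave 44.8%, 58.8%, 54.5%, 58.8% and 63.8%, then 71.1%, 72.6%, 65.0%, 67.9% and 63.4%. EpiLC dCD gave 42.6%, 60.9%, 63.9%, 60.4% and 64.0%, then 72.6%, 72.0%, 69.6%, 70.9% and 67.2%. All 3 EpiLC tracks thus had their lowest share in the window farthest to the left, and all had a share above 70% just to the right of the Klf4 TSS.

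The switch from naive to EpiLC was accompanied by a higher Crick share from 200 to 100 kb to the left of the Klf4 TSS in control and dKO, a stretch that starts to the left of Rad23b, covers it and ends short of Gm12510. In control, 3 of 10 windows were called, against 15.1% of all windows. The window from 150 to 100 kb to the left of the TSS rose by 30.3 (19.2 to 40.3) percentage points and that from 200 to 150 kb by 12.8 (2.501 to 22.9). The window from 50 to 100 kb to the right of the TSS fell by 10.3 (−19.5 to −0.198 for the signed difference). With libraries thinned to the smallest, the window from 150 to 100 kb alone kept its call in control, at 35.1 (20.3 to 47.7), and the others gave 13.7 (−0.149 to 26.7) and −10.3 (−23.6 to 2.90). The call on the right was also lost with base content removed, at −7.82 (−17.6 to 2.63). In dKO, 3 of 10 windows were called, against 11.4%. The same pair of windows on the left rose by 14.3 (2.33 to 25.4) and 14.8 (4.34 to 24.8), and the window from 100 to 150 kb to the right fell by 10.9 (−19.9 to −0.606). In dKO the call from 150 to 100 kb to the left was lost with thinning, at 11.7 (−4.02 to 26.7), and that on the right with base content removed, at −9.89 (−19.4 to 0.781).

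No such rise was called in dCD. Here, 2 of 10 windows were called between the states, against 18.6%, and both were lower in EpiLCs. They were the first and second windows to the right of the TSS, at −13.4 (−21.8 to −1.76) and −14.3 (−22.8 to −3.28) percentage points. Neither call held with the base content part removed, at −9.27 (−19.0 to 3.16) and −9.41 (−19.7 to 2.84), nor with deviations divided by the spread of Crick shares in each library, and none of 9 windows shifted by 25 kb was called. The second was also lost with libraries thinned to the smallest, at −5.97 (−19.1 to 6.64). In the windows from 200 to 150 kb and from 150 to 100 kb to the left, dCD changed by −6.18 (−17.2 to 6.19) and 5.80 (−6.54 to 18.6).

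The change in each mutant was also set against the change in control directly. For dCD, 3 of 10 windows were called, against 9.16% of all windows. The dCD change minus the control change was −19.0 (−33.9 to −2.89) and −24.5 (−40.4 to −7.54) percentage points in the windows from 200 to 150 kb and from 150 to 100 kb to the left. It was −16.7 (−29.4 to −2.15) in the first window to the right of the TSS. In this window the naive dCD difference from control lost its call after division by the spread of each library. The dCD change between states lost its call there with base content removed. For dKO, 2 of 10 windows were called, against 7.69%. The dKO change minus the control change was −16.0 (−31.6 to −0.312) from 150 to 100 kb to the left and 14.1 (0.487 to 27.6) from 50 to 100 kb to the right. Both of these intervals end close to 0, and no alternative was run on the differences of changes in either mutant.

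Within EpiLCs, windows were called for each mutant. Between dKO and control, 3 of 10 windows were called, against 9.85%. The dKO minus control difference was −8.58 (−16.9 to −0.123) percentage points in the window farthest to the left, −11.9 (−19.8 to −3.82) from 150 to 100 kb to the left and 9.53 (1.81 to 17.2) from 50 to 100 kb to the right. With thinning the middle one of these was still called, at −17.5 (−31.8 to −2.25), and the others were not, and 1 of 9 windows shifted by 25 kb was called. Between dCD and control, 2 of 10 windows were called, against 15.4%. The dCD minus control difference was −10.7 (−19.5 to −1.61) in the window farthest to the left and 8.92 (0.788 to 16.9) from 50 to 100 kb to the right. The latter was lost with base content removed, at 7.99 (−0.402 to 16.2), and with division by the spread of each library, at 5.74 (−3.74 to 15.2), and 1 of 9 shifted windows was called. Between dCD and dKO, 1 of 10 windows was called, against 12.9%, at 9.43 (0.976 to 17.6) from 150 to 100 kb to the left.

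**Figure D3:**
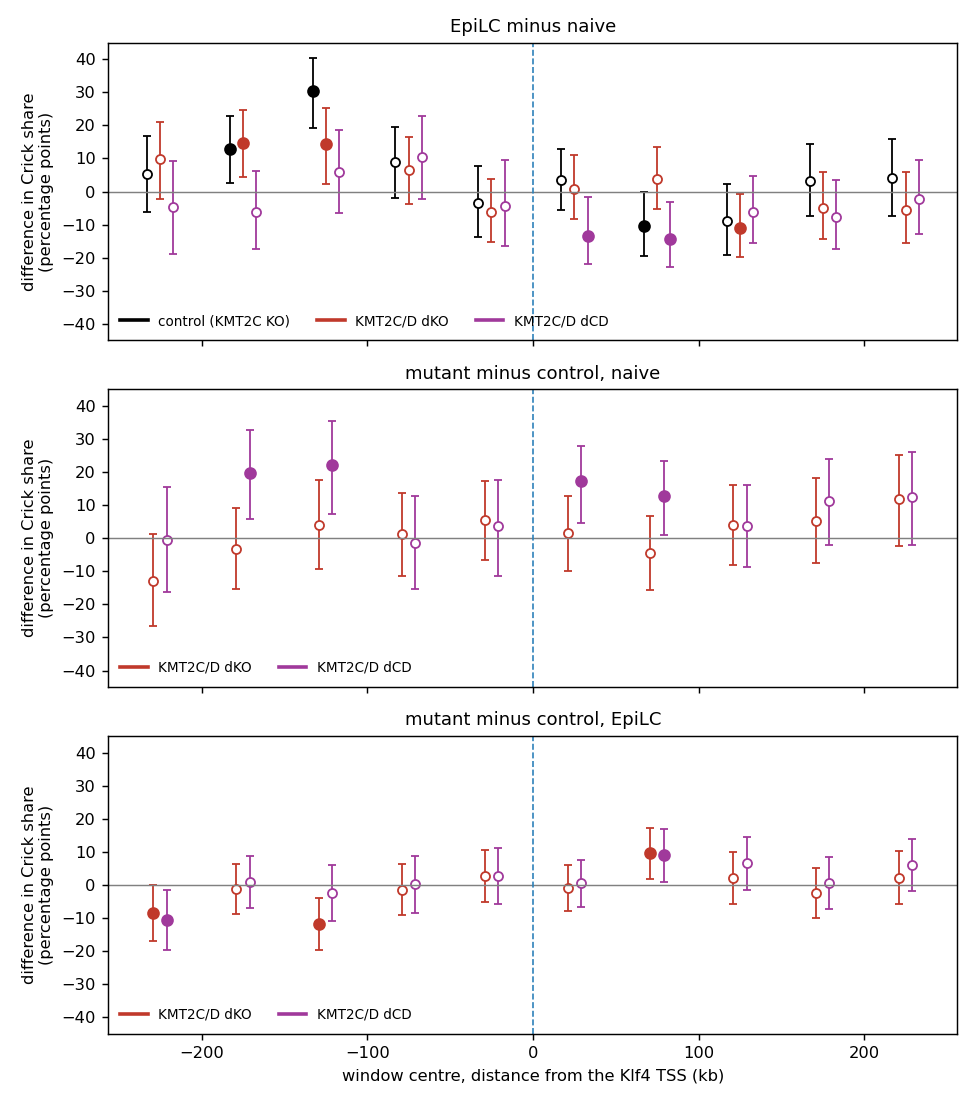
Difference in Crick share (y axis, percentage points) in each 50 kb window against distance from the Klf4 TSS (x axis, kb), with Newcombe 95% intervals; filled points have an interval without 0. The control change between states reaches 30.3 at 125 kb to the left, where dCD changed by 5.80, and the 4 called naive dCD differences from control all lie above 0.

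In windows of 25 kb most of the calls in control lay to the left of the Gm12510 TSS. Of 20 windows, 4 were called between the states in control, against 11.2% of all windows of this length. Of these, 3 adjoined each other from 150 to 75 kb to the left of the TSS, with differences of 27.6 (11.6 to 41.5), 34.1 (18.3 to 47.6) and 23.1 (7.33 to 37.5) percentage points. The last of the 3 reaches into the Gm12510 gene. The next window, from 75 to 50 kb to the left, which holds the Gm12510 TSS, differed by −3.92 (−18.0 to 11). The fourth called window was the last on the right, at 22.5 (6.17 to 38.1). In dKO 3 windows were called, against 8.76%, at 17.0 (1.66 to 31.0), 22.3 (6.54 to 36.2) and 18.6 (3.33 to 32.7), all of them from 200 to 75 kb to the left. These 3 did not adjoin each other, and the window from 125 to 100 kb, where the control difference was 34.1, differed by 4.11 (−13.8 to 21.1) in dKO. In dCD 3 were called, against 13%, of which 1 was higher, at 17.5 (0.620 to 33.2) from 75 to 50 kb to the left, and 2 were lower, on the right of the TSS.

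The same windows of 25 kb gave 5 calls between naive dCD and control, all higher in dCD, against 10% of all windows. The largest of the 5 was 28.1 (7.17 to 45.8) percentage points from 150 to 125 kb to the left. The first window to the right of the Klf4 TSS differed by 19.1 (2.57 to 32.9). Naive dKO and control gave 2 calls, against 7.28%, at opposite ends of the locus and in opposite directions. In EpiLCs, dKO and control gave 2 calls, against 8.01%, and dCD and control gave 3, against 11%.

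Over longer stretches the counts were large enough for narrow intervals. In the 250 kb to the left of the Klf4 TSS the Crick share was 49.5% (45.3 to 53.6) in naive control, 49.8% (45.6 to 54.0) in naive dKO and 58.2% (52.9 to 63.2) in naive dCD. Naive dCD differed from naive control by 8.71 (2.02 to 15.2) percentage points, a call lost with base content removed, at 6.24 (−0.452 to 12.8). In EpiLCs the Crick share was 60.2% (57.6 to 62.8), 56.7% (54.2 to 59.1) and 58.9% (56.1 to 61.7). The EpiLC dKO minus control difference was −3.49 (−7.05 to 0.0859), and with base content removed −3.96 (−7.53 to −0.374), an interval without 0. The change between states was 10.7 (5.82 to 15.6) percentage points in control, 6.89 (2.01 to 11.7) in dKO and 0.746 (−5.04 to 6.66) in dCD. The dCD change differed from that of control by −9.99 (−17.6 to −2.29), and the dKO change by −3.85 (−10.7 to 3.07), an interval that includes 0.

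In the 250 kb to the right of the TSS rightward forks were in the majority in every track. The Crick share was 68.2% (64.1 to 72.0) in naive control, 71.2% (67.3 to 74.9) in naive dKO and 78.8% (74.4 to 82.5) in naive dCD, and 66.3%, 68.0% and 70.4% in the EpiLC tracks. Naive dCD exceeded naive control by 10.6 (4.85 to 16.1) percentage points, and EpiLC dCD exceeded EpiLC control by 4.09 (0.580 to 7.59), a call lost with the part that followed base content removed, at 3.57 (−0.0222 to 7.16). Values for the 250 kb were not divided by the spread of Crick shares in each library. Both 50 kb windows called on the right between naive dCD and control lost their call under that division. Control changed between states by −1.87 (−6.47 to 2.90), dKO by −3.28 (−7.63 to 1.29) and dCD by −8.39 (−12.9 to −3.46). The dCD change minus the control change was −6.52 (−13.1 to 0.222) and the dKO change minus the control change −1.41 (−7.86 to 5.07), and both intervals include 0.

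The naive dCD library also had the steepest fork polarity of the 6 over the whole genome. The spread (SD) of the Crick share over all 50 kb windows, after removal of the counting noise, was 16.5 percentage points in naive dCD against 12.6 in naive control and 13.2 in naive dKO. In EpiLCs it was 12.2 in dCD, 9.73 in control and 10.6 in dKO. The pair of windows still called between naive dCD and control after division by this spread lay from 200 to 100 kb to the left of the TSS. Both windows called on the right lost their call under this division, which was not run on the 250 kb stretches. The Crick share also followed base content, in that bins with more T than A on the Watson strand had a higher Crick share in every library. With the part that followed base content removed, naive dCD exceeded control by 9.65 (3.56 to 15.5) in the 250 kb on the right. The change between states on the left was then 9.78 (4.86 to 14.7) in control and 6.23 (1.34 to 11.1) in dKO.

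The running sum of Crick minus Watson reads gives the turning points without any window: it falls where leftward forks dominate and rises where rightward forks do. In naive control and naive dKO it had its lowest point at the same bin boundary, position 55458000, 74 kb to the left of the Klf4 TSS and within the Gm12510 gene. In naive dCD the lowest point was 186 kb to the left, near the start of Rad23b. In EpiLCs it lay at the left end of the locus in control, 218 kb to the left of the TSS in dKO and 184 kb to the left in dCD. The lowest points of the naive control and naive dKO curves were 59 and 71 reads below the start, while that of naive dCD was 7 reads below it.

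**Figure D4:**
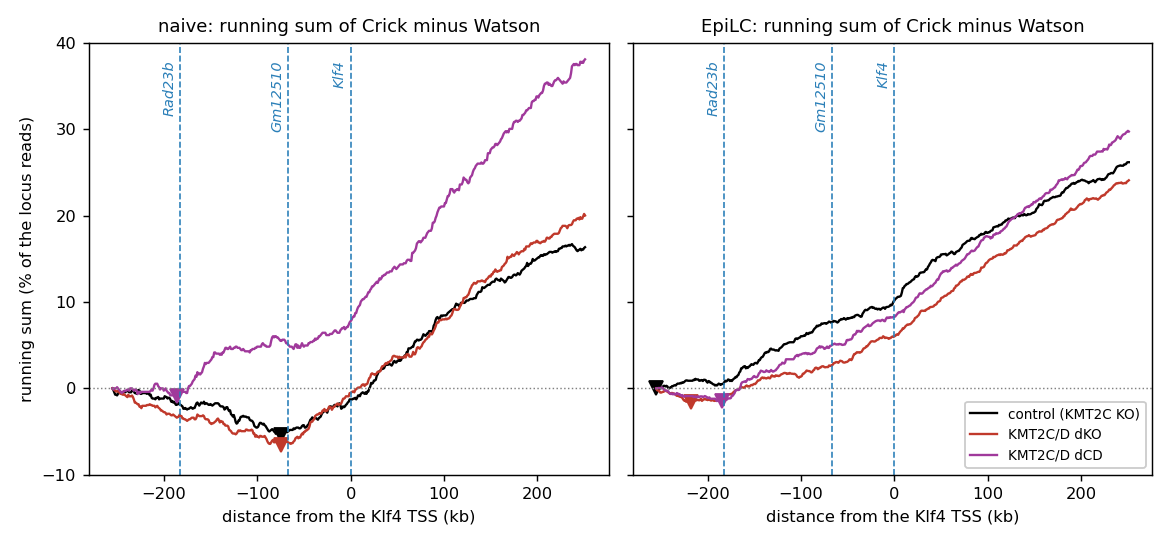
Running sum of Crick minus Watson reads from the left end of the locus (y axis, percent of the reads of the locus) against distance from the Klf4 TSS (x axis, kb) in naive cells (left) and EpiLCs (right). Triangles mark the lowest point of each curve, which is 74 kb to the left of the TSS in naive control and dKO and 186 kb to the left in naive dCD.

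The locus was then divided at the position that best separated 2 segments of constant Crick share. In naive control this was again position 55458000, with all positions within 2 log-likelihood units of it between 80 and 47 kb to the left of the TSS. The Crick share went from 42.6% (37.8 to 47.5) to 67.0% (63.4 to 70.3) there. In naive dKO the division lay 64 kb to the left (range 74 to 60 kb), with a step from 41.2% to 70.7%. In naive dCD it lay 6 kb to the left (15 to 1 kb), with a step from 57.4% to 79.1%. These 3 ranges did not overlap between dCD and the others, but with the base content part removed the naive dCD division moved to 50 kb to the left (64 to 5 kb), which overlaps that of control.

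Among the EpiLC tracks the step was largest in dCD, from 44.2% to 67.9%, at 182 kb to the left of the Klf4 TSS (187 to 175 kb), a range that holds the Rad23b TSS. In control it was 183 kb to the left (192 to 172 kb), also at Rad23b, with a step from 51.8% to 65.0%. In dKO it was 51 kb to the left, with a range from 196 to 45 kb that spans both Rad23b and Gm12510. With the base content part removed the divisions of control, dKO and dCD were at 124 (194 to 35), 82 (103 to 50) and 130 kb (136 to 126) to the left. The range of control then still held the Rad23b TSS, while that of dCD no longer did.

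Strand bias at a single site, over the 25 kb on each side that the study used, was taken here as the Crick share in the 25 kb to the right minus that in the 25 kb to the left, and a value above 0 means that forks diverge from the site. At the Klf4 TSS it was 4.86 (−11.4 to 21.1) percentage points in naive control, −1.19 (−16.8 to 14.8) in naive dKO and 20.2 (1.37 to 38.3) in naive dCD. In EpiLCs it was 14.3 (3.52 to 24.9) in control, 16.0 (5.81 to 25.7) in dKO and 11.3 (−0.267 to 22.6) in dCD. The share of all 20466 protein-coding TSSs with an interval above 0 was 20%, 17.7% and 19.4% in the naive tracks and 20.9%, 25.1% and 26.8% in the EpiLC tracks. Klf4 exceeded 0 in naive dCD, EpiLC control and EpiLC dKO. None of the 9 differences between tracks at the Klf4 TSS was called. The shares of all TSSs called were 8.32%, 7.61% and 7.92% between the states in control, dKO and dCD. They were 6.87% and 6.38% for naive dKO and dCD against control, 6.2% and 6.68% for the same pairs in EpiLCs, and 6.57% and 6.6% for dCD against dKO in naive cells and EpiLCs. The control change was 9.47 (−10 to 28.9). With the base content part removed, no track had an interval above 0 at Klf4, and naive control gave −10.9.

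At a point 55 kb downstream of the Klf4 TSS, chosen for the known distance of its distal enhancers and not from a peak, the interval of the bias was above 0 in naive dKO, naive dCD and EpiLC dCD. It was 10.9 (−6.86 to 27.8) in naive control, 24.5 (8.06 to 39.0) in naive dKO and 32.8 (9.86 to 50.8) in naive dCD. In EpiLCs it was 3.58 (−8.20 to 15.2) in control, 10.4 (−0.332 to 20.9) in dKO and 19.3 (6.92 to 31.1) in dCD. Of the points at the same distance downstream of 20407 protein-coding TSSs, 8.22%, 7.57% and 8.26% were above 0 in naive control, dKO and dCD, and 9.22%, 11% and 11.4% in the EpiLC tracks. Each of the 3 calls was lost when the point was moved by 5 kb in one direction or in both: naive dKO gave 10.6 at 50 kb, naive dCD 16.8 at 60 kb and EpiLC dCD 4.77 and 6.95 at 50 and 60 kb. In each genotype the EpiLC value was below the naive value, with differences of −7.29, −14.1 and −13.5 percentage points, but each interval included 0. Neither mutant had a lower value than control in either state, and the dCD minus control difference was 22.0 (−6.56 to 47.2) in naive cells and 15.7 (−1.25 to 32.4) in EpiLCs.

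The naive control and dKO curves turned within the Gm12510 gene, to the left of its TSS. At the Gm12510 TSS the bias was 20 (2.21 to 36.0) in naive control, 26.2 (9.17 to 41.1) in naive dKO and 3.85 (−17.0 to 24.2) in naive dCD. In EpiLCs it was −5.32 (−16.7 to 6.28), 6.01 (−4.57 to 16.4) and 1.36 (−10.8 to 13.5). The EpiLC minus naive difference was −25.3 (−44.9 to −4.08) percentage points in control and −20.1 (−38.5 to −0.237) in dKO, while in dCD it was −2.49 (−26.2 to 21.6). Of all TSSs, 8.32% and 7.61% were called in control and dKO. This site was compared after the turning points had been seen, so these differences describe the same reads and give no separate support. Between naive dKO and naive control the difference was 6.15 (−17.2 to 29.4). With the base content part removed, naive control and naive dKO were still above 0, at 25 and 30.2, and EpiLC dKO was as well, at 13.9.

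At the Rad23b TSS the bias was 11.3 (−6.53 to 28.1) in naive control, 12.7 (−5.66 to 29.9) in naive dKO and 32.4 (9.17 to 51.7) in naive dCD. In EpiLCs it was 16.4 (5.32 to 26.9) in control, 10.6 (−0.00719 to 21) in dKO and 25.9 (14.7 to 36.2) in dCD. Of the 9 differences between tracks, 1 was called, that of dCD minus dKO in EpiLCs at 15.3 (0.0242 to 30.1), against 6.6% of all TSSs in that comparison. With the base content part removed, EpiLC dCD alone of the 6 tracks was still above 0 at Rad23b, at 16.3.

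**Figure D5:**
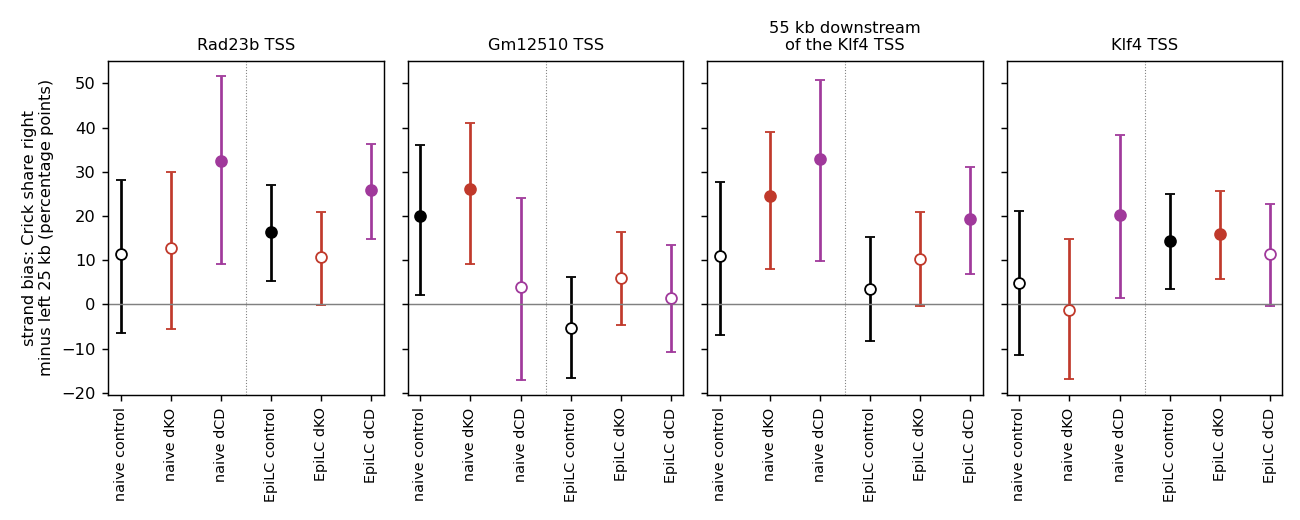
Strand bias (y axis, percentage points) at the TSSs of Rad23b, Gm12510 and Klf4 and at the point 55 kb downstream of the Klf4 TSS in the 6 pooled tracks (x axis), with Newcombe 95% intervals; filled points have an interval without 0. Gm12510 is above 0 in naive control and dKO, at 20 and 26.2, and in no EpiLC track. Klf4 is above 0 in naive dCD, at 20.2, and in EpiLC control and dKO, at 14.3 and 16.0, with no difference between tracks called there.

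The stretches beyond the locus were measured in the same way. In the 250 kb beyond the left end, the Crick share was 44.9% (40.9 to 49.0) in naive control, 43.4% (40.9 to 45.9) in EpiLC control, 40.4% (36.2 to 44.7) in naive dKO and 41.8% (39.6 to 44.2) in EpiLC dKO. Naive dCD had 32.7% (28.3 to 37.4) there and EpiLC dCD had 42.1% (39.6 to 44.6), with intervals that did not overlap. The naive dCD interval also lay below that of naive control, the reverse of the called naive dCD differences within the locus. In the 250 kb beyond the right end the share lay between 56.4% and 63.1% in the 6 tracks.

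Klf4 was set beside 17 other pluripotency genes, which include the core factors Pou5f1, Sox2 and Nanog, the KLF family members Klf2 and Klf5, and naive factors such as Esrrb, Tfcp2l1, Zfp42 and Tbx3. Of these 18 TSSs, 9 had a strand bias above 0 in naive control, 6 in naive dKO and 11 in naive dCD, against the 20%, 17.7% and 19.4% of all TSSs. In EpiLC control 7 did, against 20.9%, and Klf4 was among them, with Gbx2, Nanog, Sox2, Stat3, Tbx3 and Tfcp2l1. Among the 9 above 0 in naive control were Tbx3, at 37.0 (21.9 to 49.8), and Tfcp2l1, at 33.0 (14.9 to 48.7). The interval of Klf4 included 0 there, as did those of Sox2, Dppa3, Nanog, Fgf4, Zfp42, Dppa5a, Esrrb and Klf5. Between the states in control, 3 of 18 were called, against 8.32%, all of them lower in EpiLCs, namely Nr0b1, Pou5f1 and Prdm14. The median change over the 18 was −11.2 percentage points and that over all TSSs was −2.07. Klf4 moved in the other direction from the median, with an interval that included 0. Sox2, Fgf4, Esrrb and Klf5 also had a higher value in EpiLC control than in naive control. In dKO 1 of 18 was called between the states, against 7.61%, and in dCD 0, against 7.92%. The median changes were −4.92 and −7.96.

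The profile of Klf4 over 10 windows in 6 tracks, 60 values, was compared with that of 20032 protein-coding genes, with genes on the plus strand mirrored. The most similar were Tmem19, with a Pearson correlation of 0.847, Cct8l1 at 0.837, Ctns at 0.837, Nmrk1 at 0.832 and Mettl2 at 0.831. The median over all genes was 0.197. Neighbouring windows and tracks of the same library depth are not independent values, so these correlations are descriptions only.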

How the data were processed

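Cells were pulsed with EdU, Okazaki fragments were size selected on sucrose gradients and captured by click chemistry, and the reads were aligned to mm10 with Bowtie2 by the authors, who also list FastQC, Trim Galore and Picard in the submitters' processing notes. The deposited values are a signal per 1 kb bin and strand, which the authors made by summing the reads of 2 replicates; every value was a whole multiple of 0.001 and was multiplied by 1000 to give reads. Positions were taken as bin ends, since no read then fell in the 74155 bins of unknown sequence, against 3045 reads if taken as starts. Bins over 10 times the genome median were left out, 83 in the genome and 0 in the locus. The tiles left out 6 of the 506 bins.

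Crick shares have Wilson intervals, their differences Newcombe intervals, and differences of differences intervals from the summed squared limits, at a confidence of 95%. Intervals cover counting error only, since PCR copies and differences between cultures are not in them. Windows and TSSs needed 10 reads in each track. Gene models were GENCODE M21 on GRCm38.p6. The step from base content used a slope per library on T minus A percent, between 1.21 and 1.82. Genes named were those with a TSS in the locus, members of the list of 18 pluripotency genes, and the 5 most similar profiles with at most 1 per Mb. The members, lists and alternatives were chosen with earlier results of these data known, and the left and right stretches, the division into segments, dCD minus dKO, and the Gm12510 and Rad23b comparisons were added after the tracks were seen. Python 3.11.15 with numpy 2.4.6, scipy 1.17.1 and pandas 2.3.3 was used, and the code was tested on simulated data.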

Additional observations from a re-analysis of the deposited data

Results flagged for a closer look

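The change in Crick share from naive to EpiLC differed from that of control, by an interval of counting error without 0, in 4 windows of 50 kb, of which 1 was called for both mutants. Of all windows, 9.16% were called for dCD and 7.69% for dKO. For dCD the change minus that of control was −19.0 percentage points (−33.9 to −2.89) from 200 to 150 kb to the left of the Klf4 TSS, −24.5 (−40.4 to −7.54) from 150 to 100 kb to the left and −16.7 (−29.4 to −2.15) in the first window to the right. For dKO it was −16.0 (−31.6 to −0.312) from 150 to 100 kb to the left and 14.1 (0.487 to 27.6) from 50 to 100 kb to the right. Both dKO intervals end close to 0, and no alternative was run on the differences of changes in either mutant. Both mutants differed from control in the window from 150 to 100 kb to the left, and they share the control tracks. In that window dCD minus control was 22.0 (7.25 to 35.5) in naive cells and −2.50 (−10.9 to 5.88) in EpiLCs. There dKO minus control was 4.12 (−9.37 to 17.6) in naive cells and −11.9 (−19.8 to −3.82) in EpiLCs. The call for dCD thus went with a naive difference and that for dKO with an EpiLC difference.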

How the results depend on the processing

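No paired analysis was possible because each deposited track is the sum of its 2 replicates, and no replicate could be left out. No called result changed direction under the alternatives run, but values with an interval that included 0 did, among them the Klf4 TSS bias of naive control, which was −23.1 with 10 kb sides and −10.9 with base content removed. The 7 read ratios kept their side of 1 and of the interval under every denominator. The naive tracks held few reads per window, which limits what they can show. Over the alternatives run on single windows, 20 differences lost their call, 3 gained one and 187 did neither. With windows of 25 kb, 3 of 20 were called between states in dKO, and 2, 5 and 2 of 20 for naive dKO, naive dCD and EpiLC dKO against control. With windows shifted by 25 kb, 0 of 9 were called between states in dCD, and against control 2 of 9 in naive dCD, 1 in EpiLC dKO and 1 in EpiLC dCD. With the base content part removed, 0 of 10 were called between states in dCD and 1 between dCD and control in EpiLCs. With libraries divided by their spread, these were 0 and 1, and naive dCD against control gave 2. With libraries thinned to the smallest, 1 was called between states in control and 1 between dKO and control in EpiLCs.

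At the Klf4 TSS, naive dCD was no longer above 0 with 10 kb sides (7.07) or with base content removed (5.61). EpiLC control was not with 10 kb sides (10.6), base content removed (6.47) or thinning (7.93), nor EpiLC dKO with base content removed (6.42) or thinning (15.0), and EpiLC dCD exceeded 0 with 50 kb sides (8.60). At the point downstream, naive control exceeded 0 with 50 kb sides (17.1). Naive dKO no longer did with 10 kb sides (9.91) or the point at 50 kb (10.6), nor naive dCD with 10 kb sides (19.0), 50 kb sides (12.8) or the point at 60 kb (16.8). EpiLC dKO exceeded 0 with base content removed (12.3) or the point at 50 kb (14.2). EpiLC dCD no longer did with 50 kb sides (7.96), thinning (6.24), or the point at 50 kb (4.77) or 60 kb (6.95). The lowest point of the running sum moved to position 55304000 in naive dCD with base content removed and to 55340000 in EpiLC control with thinning. The cause of these changes was not tested.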
